A study of Mus musculus with 8 samples.

Results

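The transcription factor genes *Irx1*, *Irx2* and *Hhex* of the α- and δ-cell lineages were chosen by their symbols, 3 of the 30406 genes listed for all 8 libraries of a single-cell RNA-sequencing study of mouse pancreatic islets. Islets of male C57BL/6 mice aged 12 to 16 weeks were pooled over 10 animals per replicate, and each of the 2 pools was divided over 4 conditions, with 1 library each. Intact islets were cultured for 18 h untreated, with cytokines (IFN-γ at 150 U/mL and IL-1β at 10 U/mL), with the same cytokines and 2 mM NMMA (NG-monomethyl-L-arginine, an inhibitor of nitric oxide synthase), or with NMMA alone, and were dispersed to cells afterwards. No group carried a transgene or a deletion, and because islets were treated whole, every cell was exposed to what the other cells of its islet released. The level of each gene was followed in α-, δ-, PP- and β-cells over these conditions, to ask whether it fell with cytokines and whether a fall depended on nitric oxide.

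*Irx1* and *Irx2* encode Iroquois homeobox proteins, and in the endocrine pancreas both are known as genes of glucagon-producing α-cells. *Hhex* encodes a homeobox protein that often acts as a repressor with Groucho corepressors, is needed for somatostatin-producing δ-cells, and is also used in the endothelial and blood lineages. IL-1β and IFN-γ together induce inducible nitric oxide synthase in islets, and the nitric oxide it makes inhibits mitochondrial metabolism. The paper reports the transcript of this enzyme in part of the β-, δ- and α-cells given cytokines.

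The libraries held 26549922 to 50731370 unique molecular identifiers (UMIs, 1 per captured RNA molecule), and 10876 of 17426 barcodes passed the limits on genes and mitochondrial UMIs. Cells were put in classes by clustering, with the 3 genes left out of the clustering and of the marker lists, which gave 650 α-cells, 327 δ-cells, 101 PP-cells (cells making pancreatic polypeptide), 6347 β-cells, 324 macrophages, 283 endothelial cells and 215 mesenchymal cells. The fewest α- and δ-cells were kept with cytokines alone, 43 and 53 α-cells and 11 and 15 δ-cells in replicates 1 and 2, against 106 and 117 α-cells and 89 and 41 δ-cells in the untreated libraries. The hormone that names each class was present in every library, but *Ghsr*, a δ-cell receptor gene, was at 0 UMIs in α-cells and *Lepr* at 0 in δ-cells. Markers of β-cells were found in both classes, at 4593 to 33382 CPM (UMI counts scaled to a common total) in α-cells and 13811 to 73140 in δ-cells. With cytokines in replicate 2, the δ-cells held more RNA of the glucagon gene *Gcg* (44413 CPM) than of the somatostatin gene *Sst* (31706 CPM). Untreated δ-cells of that replicate were at 13421 and 74479 CPM. Of the kept barcodes, 14 were shared by more than 1 library.

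*Irx1* lies on chromosome 13 (chr13:71957921-71963723, minus strand, GRCm38) and *Irx2* on the same chromosome (chr13:72628820-72634198, plus strand). Their starts were 665096 bases apart, with 0 protein-coding genes between. *Hhex* lies on chromosome 19 (chr19:37434810-37440731, plus strand), and no annotated gene overlapped any of the 3 on either strand. The 3′-end UMIs of each can therefore be assigned to 1 gene.

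The promoter sequences just upstream of *Irx2* and *Hhex* are shown because these were the pair of genes that passed the test for lower levels with cytokines. They are 5′ to 3′ on the plus strand, from RefSeq's annotation of GRCm38.p6, where 2 of the 3 genes were matched (*Irx1* was the other). Capitals mark a CCAAT box on either strand (ATTGG on the opposite strand) in both, and in *Hhex* also a match to the NF-κB consensus.
*Irx2* promoter, chr13:72628570-72628819: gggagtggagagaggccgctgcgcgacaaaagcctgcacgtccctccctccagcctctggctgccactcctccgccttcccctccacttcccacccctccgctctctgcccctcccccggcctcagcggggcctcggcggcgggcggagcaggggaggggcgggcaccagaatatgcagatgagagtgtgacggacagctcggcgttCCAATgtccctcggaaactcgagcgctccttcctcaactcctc
*Hhex* promoter, chr19:37434591-37434809: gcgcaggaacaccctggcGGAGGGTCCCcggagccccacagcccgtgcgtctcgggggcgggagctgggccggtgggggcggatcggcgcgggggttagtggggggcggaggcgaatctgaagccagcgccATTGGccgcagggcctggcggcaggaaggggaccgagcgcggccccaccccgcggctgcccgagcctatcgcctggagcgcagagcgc
Both windows were rich in G and C. The *Irx2* window of 250 bases was 68.4% G or C with 19 CpG dinucleotides, and the *Hhex* window of 219 bases was 77.2% with 26, where the median of 27025 promoters was 52.0% with 6. The gamma-activated site TTCNNNGAA, an element of IFN-γ-responsive genes, and the interferon-stimulated response element (GAAA repeated after any 2 bases) had 0 matches in either window on either strand, and 7.18% and 3.04% of all promoters held them. The NF-κB consensus was in 7.01% of promoters and CCAAT in 34.5%. These are matches of letters in a short window and say nothing about which factor binds there.

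For *Hhex*, the transcript measured is also marked by the study's PCR primers, given here for the part of the gene they read.
*Hhex* forward: cggacggtgaacgactacac
*Hhex* reverse: aacctcacttgaccgccttt
The forward primer matched exon 1 (chr19:37435185-37435204) and the reverse primer exon 2 (chr19:37437239-37437258) of the 4-exon coding transcript, and the reverse primer ended 1308 bases from the 3′ end where droplet libraries are read.

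In untreated islets, *Irx1* and *Irx2* had their highest levels in α-cells and *Hhex* in δ-cells, given here as CPM of all UMIs of a class in a library and with no test, since the genes are known for this pattern. *Irx1* was at 147 and 95.8 CPM in α-cells of replicates 1 and 2, from 382 UMIs in 223 cells. Its mean in α-cells was 121 CPM, 23.0-fold that in δ-cells (5.27 CPM, from 6 UMIs). PP-cells held 2 *Irx1* UMIs and endothelial cells 1, and macrophages and mesenchymal cells held 0 in 110 and 64 cells. In 2263 untreated β-cells there were 16 *Irx1* UMIs, a mean of 0.335 CPM.

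*Irx2* was at 168 and 138 CPM in untreated α-cells, and spread further over the endocrine cells than *Irx1* did. PP-cells came next with 24.4 and 17.7 CPM from 16 UMIs, 7.28-fold below the α-cell mean of 153 CPM, and δ-cells followed with 2.21 and 24.6 CPM from 15 UMIs. The PP- and δ-cell values overlapped, so these neighbours in the order could not be separated. β-cells held 87 *Irx2* UMIs (mean 1.97 CPM) beside their 16 of *Irx1*, where α-cells held 493 and 382. The ratio of *Irx1* to *Irx2* UMIs was thus not the same in β-cells as in α-cells.

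*Hhex* had its highest level in δ-cells, at 245 and 219 CPM from 338 UMIs in 130 cells, and a second level outside the endocrine cells. Endothelial cells were at 72.2 and 45.2 CPM and macrophages at 64.6 and 32.0 CPM, which overlapped each other and lay below both δ-cell values. The δ-cell mean of 232 CPM was 3.95-fold that of endothelial cells. The other classes were low, with a mean of 6.72 CPM in α-cells, 3.54 in PP-cells from 2 UMIs, 1.26 in mesenchymal cells from 1 UMI and 0.321 in β-cells from 15 UMIs. Barcodes of few UMIs that stayed unnamed held 51 and 34 untreated *Hhex* UMIs, against 36 and 31 in endothelial cells and 23 and 23 in macrophages. Among the unnamed were clusters with their highest marker score for ductal cells. Which unnamed clusters held *Hhex* was not tested.

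**Figure D1:**
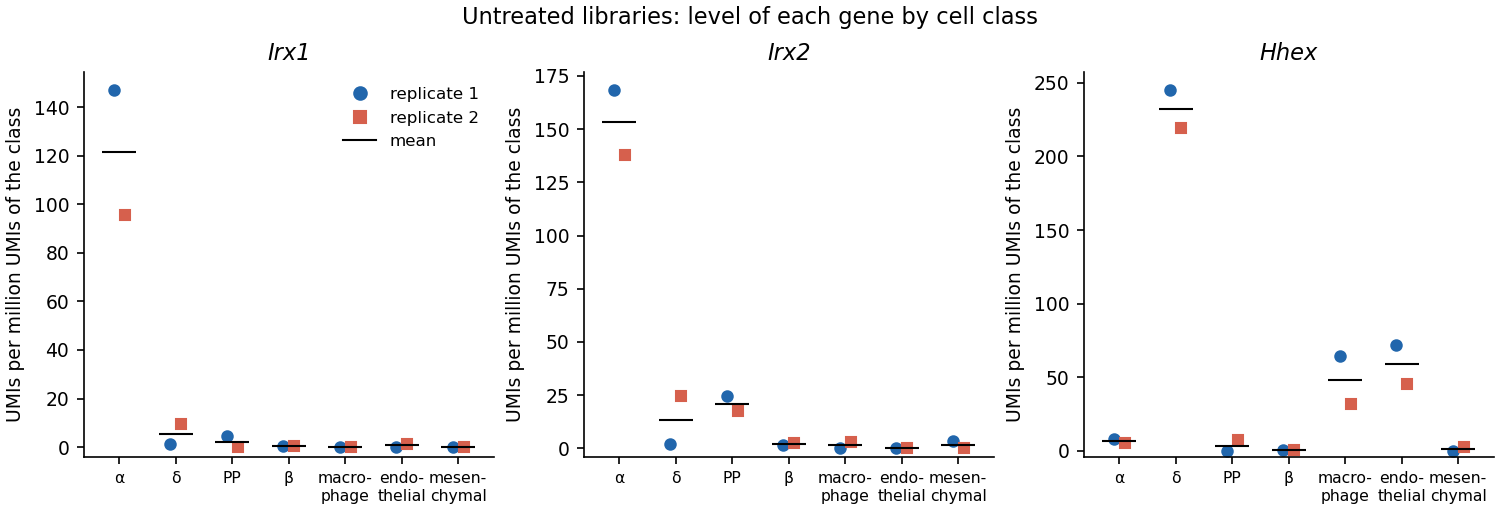
Level of *Irx1*, *Irx2* and *Hhex* in each cell class of the 2 untreated libraries, in CPM of the class (y axis, linear); points are replicates and lines their means. *Irx1* and *Irx2* stand highest in α-cells, *Hhex* in δ-cells with lower levels in macrophages and endothelial cells.

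Cells of different classes differ in depth, with a median of 14892 UMIs in α-cells, 12867 in δ-cells and 24308 in β-cells over all libraries, so shares of cells were also compared with every cell thinned to 1500 UMIs. At that depth *Irx1* was found in 21.6% and 14.8% of untreated α-cells of replicates 1 and 2, and in 0% (0 of 1656, upper limit of the exact 95% interval 0.223%) and 0.169% of β-cells. *Irx2* was found in 23.5% and 19.4% of α-cells and in 0.302% and 0.508% of β-cells. *Hhex* was found in 29.4% and 32.4% of δ-cells and in 0.0604% and 0% (0 of 590, upper limit 0.623%) of β-cells. The leading classes lay far above the β-cell shares. How much of the β-cell signal was background was not tested.

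With cytokines, the level of *Irx2* in α-cells was 40.9% of that in untreated cells. For the comparison of conditions within a class, levels are CPM with TMM scaling, which corrects for the RNA composition of the sums. *Irx2* was at 152 and 128 CPM untreated (222 and 271 UMIs), 44.2 and 67.4 CPM with cytokines (20 and 47 UMIs), 127 and 112 CPM with cytokines and NMMA (200 and 146 UMIs), and 170 and 109 CPM with NMMA alone (177 and 212 UMIs). Both cytokine libraries lay below all the other α-cell libraries. The means were 140 ± 16.8 CPM (SD, n = 2) untreated, 55.8 ± 16.4 with cytokines, 119 ± 10.6 with cytokines and NMMA and 140 ± 43.3 for NMMA alone. edgeR's quasi-likelihood test, with Benjamini-Hochberg adjustment over 9533 genes, gave a log2 change of -1.29 (SE 0.26, adjusted p = 0.00242) with cytokines, a 2.45-fold lower level. Of all genes tested in α-cells, 20.6% were called in this comparison and 8.13% were called lower.

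The *Irx2* level with cytokines alone was also lower than with cytokines and the nitric oxide synthase inhibitor. The log2 difference was -1.07 (SE 0.27, edgeR adjusted p = 0.0148), in a comparison where 11.4% of the genes were called and 5.35% were called lower. This call rests on single libraries: it was lost without replicate 1 of the cytokine libraries (log2 change -0.83, edgeR adjusted p = 0.111) and without replicate 1 of the cytokine and NMMA libraries (-0.97, adjusted p = 0.0898). With cytokines and NMMA, *Irx2* was not called different from untreated (log2 change -0.22, SE 0.23, edgeR adjusted p = 0.711), where 7.93% of genes were called and 2.17% called lower.

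The log2 change of *Irx1* with cytokines was smaller than that of *Irx2*, a difference between the genes that was not tested, and its replicates lay further apart than those of *Irx2* in the 2 conditions without cytokines. It was at 133 and 88.8 CPM in untreated α-cells (194 and 188 UMIs), 72.9 and 71.7 CPM with cytokines (33 and 50 UMIs), 96.5 and 72.9 CPM with cytokines and NMMA (152 and 95 UMIs), and 153 and 78.6 CPM with NMMA (159 and 153 UMIs). Both cytokine libraries were below the untreated ones, but the second was only just below its partner with NMMA. The means were 111 ± 31.0 CPM (SD, n = 2) untreated, 72.3 ± 0.834 with cytokines and 84.7 ± 16.7 with cytokines and NMMA. The log2 change with cytokines was -0.61 (SE 0.32) and did not pass the test (edgeR adjusted p = 0.212).

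The *Irx1* result depended on how the sums were scaled. With total UMIs in place of TMM, its log2 change was -1.12 (edgeR adjusted p = 0.0286), but the median of all α-cell genes then stood at -0.53, against -0.04 with TMM. The cause of the shift was not tested. Against cytokines and NMMA the *Irx1* change was -0.23 (SE 0.33, edgeR adjusted p = 0.712), and cytokines with NMMA differed from untreated by -0.37 (SE 0.30, adjusted p = 0.601). Neither a nitric oxide-dependent nor a nitric oxide-independent change of *Irx1* was detectable with 2 libraries per condition.

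In δ-cells, cytokines left 24.8% of the *Hhex* level of untreated cells. *Hhex* was at 243 and 255 CPM untreated (222 and 116 UMIs), 52.1 and 68.1 CPM with cytokines (8 and 17 UMIs), 114 and 113 CPM with cytokines and NMMA (98 and 57 UMIs), and 286 and 228 CPM with NMMA alone (143 and 116 UMIs). The 3 levels did not overlap: both cytokine libraries were lowest, both libraries with cytokines and NMMA stood between, and the libraries without cytokines were highest. The means were 249 ± 8.72 CPM (SD, n = 2), 60.1 ± 11.4, 114 ± 0.921 and 257 ± 41.2 in that order of conditions. The log2 change with cytokines was -2.01 (SE 0.28, edgeR adjusted p = 0.000164), 4.04-fold lower, where 7.74% of 7749 genes tested in δ-cells were called and 3.01% were called lower.

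A lower *Hhex* level was also found with the inhibitor present. Cytokines and NMMA gave a log2 change of -1.13 against untreated (SE 0.23, edgeR adjusted p = 0.00373), 2.19-fold lower, where 7.9% of genes were called and 2.32% called lower. This call was lost without replicate 1 or without replicate 2 of the cytokine and NMMA libraries (edgeR adjusted p = 0.0592 and 0.0510), while the log2 change stayed at -1.14 and -1.12. Between cytokines alone and cytokines with NMMA the log2 change was -0.89 (SE 0.29), with an unadjusted edgeR p of 0.00774 and an adjusted p of 0.177, in a comparison where 0.761% of δ-cell genes were called and 0.658% called lower. The part of the fall that depended on nitric oxide synthase was therefore not established by the test. The cytokine values rest on 8 and 17 UMIs from 11 and 15 cells.

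**Figure D2:**
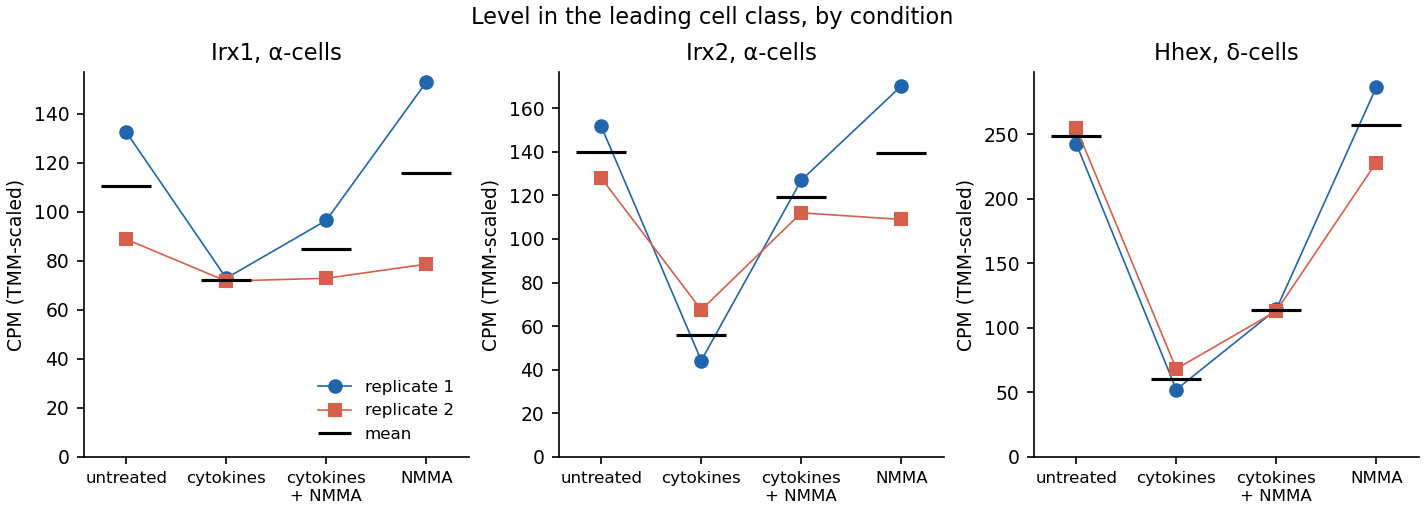
Level of *Irx1* and *Irx2* in α-cells and of *Hhex* in δ-cells over the 4 conditions, in TMM-scaled CPM (y axis, linear, from 0); points are libraries, thin lines join libraries of 1 pool and black bars are means. *Irx2* is low with cytokines alone, whereas *Hhex* is lowest with cytokines and stays below untreated with cytokines and NMMA.

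NMMA alone was not followed by a called change in any of the 3. The log2 changes against untreated were 0.05 for *Irx1*, -0.01 for *Irx2* and 0.05 for *Hhex*, each with an edgeR adjusted p of 1. In that comparison 0% of genes were called in α- and in δ-cells, with 313 and 199 genes at an unadjusted p under 0.05, 0 called by DESeq2 in α-cells, and 11 called in α-cells with the replicate as a block.

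**Figure D3:**
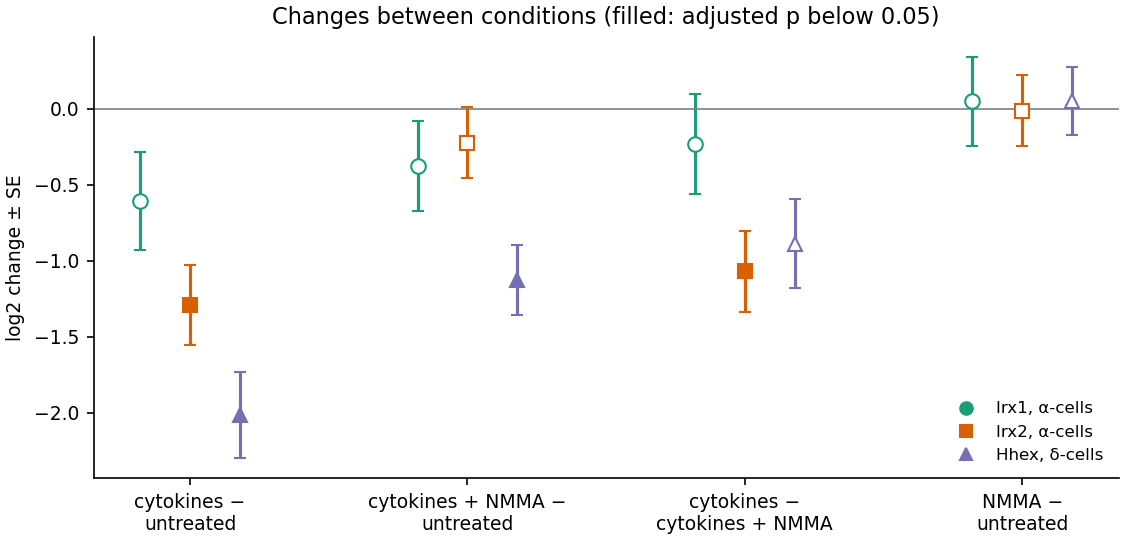
Log2 changes with their SE (y axis) of the 3 genes in their leading class for the 4 comparisons; filled symbols passed an adjusted p of 0.05. With cytokines, *Irx2* (-1.29) and *Hhex* (-2.01) passed and *Irx1* (-0.61) did not.

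Markers of other cells, depth and mitochondrial UMIs also moved between these libraries. The summed macrophage markers were at 34.5 to 58.4 CPM in α-cells and at 67.2 to 138 CPM in δ-cells. The summed α-cell markers in δ-cells ranged from 868 CPM with cytokines and NMMA in replicate 2 to 45805 CPM with cytokines in the same replicate. *Sst* was at 31706 CPM in that cytokine library. Median mitochondrial shares in α-cells were 4.30% and 4.30% untreated and 3.12% and 3.04% with cytokines, and in δ-cells 4.51% and 3.91% against 2.48% and 2.78%. Their part in the changes of *Irx2* and *Hhex* was not tested. Endothelial cells, which also held *Hhex*, gave 13.8 to 28.9 CPM of summed markers in δ-cells, with *Kdr* and *Esm1* at 0.

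A summed level cannot tell fewer expressing cells from less RNA per cell. Detection per cell at equal depth is given beside it and cannot separate them either, since with so few UMIs per cell it falls with RNA per cell as the sum does. Thinning to equal totals also corresponds to total UMI scaling, under which the median α-cell gene changed by -0.53 with cytokines. With α-cells thinned to 7000 UMIs, *Irx2* was found in 73.6% (67 of 91 cells, exact 95% interval 63.3 to 82.3%) and 60.4% (58 of 96, 49.9 to 70.3%) of untreated cells, and in 28.6% (10 of 35, 14.6 to 46.3%) and 26.1% (12 of 46, 14.3 to 41.1%) of cytokine-treated cells. With cytokines and NMMA it was in 63.8% and 55.2% of cells. *Irx1* was found in 58.2% and 44.8% of α-cells without treatment and in 25.7% and 34.8% of those given cytokines, and in replicate 2 the intervals (34.6 to 55.3% and 21.4 to 50.2%) overlapped. These intervals cover counting error only. Without thinning, *Irx2* was found in 75.5% and 69.2% of untreated α-cells and in 34.9% and 49.1% with cytokines.

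*Hhex* detection was counted at the 2000 UMIs to which δ-cells could be thinned. It was found in 46.4% (39 of 84, exact 95% interval 35.5 to 57.6%) and 48.6% (17 of 35, 31.4 to 66.0%) of untreated δ-cells, and in 9.09% (1 of 11, 0.230 to 41.3%) and 7.14% (1 of 14, 0.181 to 33.9%) of cytokine-treated δ-cells. With cytokines and NMMA it was found in 16.1% (9 of 56) and 17.2% (5 of 29), and with NMMA alone in 41.7% and 26.3%, the latter below untreated replicate 2 although the summed levels were close (228 and 255 CPM). The low shares rest on few cells and on the thinning draw, and the second cytokine library gave 14.3% (2 of 14) at 1500 UMIs. The intervals of single cytokine libraries overlapped those of the untreated libraries, because few δ-cells were captured. Unthinned shares were 74.2% and 80.5% untreated, 36.4% and 53.3% with cytokines and 63.2% and 79.3% with cytokines and NMMA, where depth per cell was higher than in the untreated libraries.

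*Irx1* and *Irx2* were found in the same α-cell less often with cytokines alone than untreated, and such a joint share also falls when each gene is detected less. Without thinning, both were found in 51.9% and 55.6% of untreated α-cells and in 18.6% and 34.0% with cytokines. At 7000 UMIs, both were found in 48.4% (44 of 91, exact 95% interval 37.7 to 59.1%) and 28.1% (27 of 96, 19.4 to 38.2%) of untreated α-cells, in 5.71% (2 of 35, 0.700 to 19.2%) and 8.70% (4 of 46, 2.42 to 20.8%) with cytokines, and in 31.3% and 15.5% with cytokines and NMMA. In replicate 1, cells with neither gene were 16.5% of untreated and 51.4% of cytokine-treated α-cells. Among untreated cells of replicate 1, *Irx2* was in 83.02% of those with *Irx1* and in 60.5% of those without. In replicate 2 these were 62.8% and 58.5%, and with cytokines 22.2% and 30.8% in replicate 1. With cytokines in replicate 2, *Irx2* was in 4 of 16 cells with *Irx1* and in 26.7% of those without. Without thinning, *Irx2* was more often found in cells with *Irx1* than in cells without it in all 8 libraries, for example in 89.04% against 36.4% in untreated replicate 2. At equal depth this order held in 4 of the 8 libraries.

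**Figure D4:**
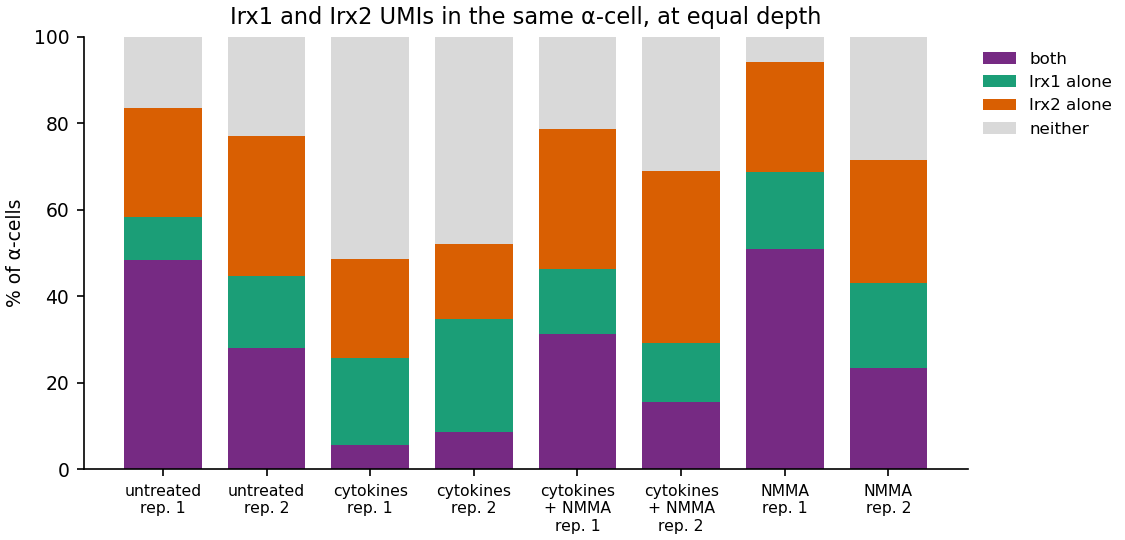
Share of α-cells of each library (y axis, %) with UMIs of both *Irx1* and *Irx2*, of either alone or of neither, after thinning each cell to 7000 UMIs. The share with both is 48.4% and 28.1% untreated and 5.71% and 8.70% with cytokines.

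Within the Iroquois pair, the balance moved toward *Irx1* with cytokines, a measure that does not depend on scaling. *Irx2* made up 53.4% and 59.0% of the *Irx1* and *Irx2* UMIs of untreated α-cells, 37.7% (exact 95% interval 24.8 to 52.1%) and 48.5% (38.2 to 58.8%) with cytokines, 56.8% and 60.6% with cytokines and NMMA, and 52.7% and 58.1% with NMMA. Both cytokine values were below all others. The difference of means between cytokines and untreated was -13.1 percentage points (exact two-sided permutation p = 0.333, the smallest that 2 against 2 libraries can give), and between cytokines and cytokines with NMMA it was -15.6 points (same p). The difference did not pass the test, nor could it have with this design.

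In β-cells, where all 3 genes were low, none was called changed with cytokines. The SEs were wider there than in the leading classes. *Irx2* had 46 and 41 UMIs in untreated β-cells, 27 and 43 with cytokines, 32 and 65 with cytokines and NMMA and 20 and 55 with NMMA. Its log2 change with cytokines was 0.05 (SE 0.84, edgeR adjusted p = 0.966), where 46.2% of 12779 β-cell genes were called. *Irx1* had 10 and 6 UMIs untreated and 7 and 17 with cytokines (log2 change 1.06, SE 0.90, edgeR adjusted p = 0.369). *Hhex* had 9 and 6 UMIs untreated and 6 and 30 with cytokines (1.81, SE 1.31, edgeR adjusted p = 0.296). With β-cells thinned to 9500 UMIs, *Irx2* was in 1.38% and 2.33% of untreated and 0.902% and 2.71% of cytokine-treated cells, so the replicates went opposite ways.

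The *Hhex* level of macrophages and endothelial cells was lower with cytokines without passing the test. Macrophages were at 63.8 and 32.6 CPM untreated, 22.5 and 20.3 with cytokines, 23.5 and 16.2 with cytokines and NMMA and 35.2 and 18.2 with NMMA (log2 change with cytokines -1.08, SE 0.47, edgeR adjusted p = 0.286, where 4.62% of 5156 genes were called). Endothelial cells were at 69.4 and 43.6 CPM untreated, 34.7 and 22.9 with cytokines, 20.5 and 63.4 with cytokines and NMMA and 57.3 and 30.6 with NMMA (log2 change -1.004, SE 0.51, adjusted p = 0.349, where 6.33% of 7505 genes were called). In endothelial cells the libraries with cytokines and NMMA were the lowest and the second highest of the 8.

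Taken as 1 population of α-, δ- and PP-cells, the non-β endocrine cells gave the same order of the 3 genes, although the shares of the cell types in it differed between conditions. *Irx2* changed by -1.14 (log2, edgeR adjusted p = 0.00375) and *Irx1* by -0.42 (adjusted p = 0.260), where 18.9% of 10843 genes were called and 7.46% called lower. *Hhex* changed by -2.08 (adjusted p = 0.00259), but without replicate 1 of the cytokine libraries by -1.93 with an edgeR adjusted p of 0.0574. Against cytokines and NMMA, *Irx2* changed by -0.90 (adjusted p = 0.0297), where 8.52% of genes were called and 4.09% called lower. This call was lost without replicate 1 of the cytokine libraries (-0.70), without replicate 1 (-0.86) or 2 (-0.95) of the cytokine and NMMA libraries.
In this population, 2 comparisons of *Hhex* that were not called without the pairing of libraries by pool were called with it. Without the pool in the fit, *Hhex* changed by -1.26 between cytokines and cytokines with NMMA (edgeR adjusted p = 0.0698) and by -0.82 between cytokines with NMMA and untreated (adjusted p = 0.105), where 9.99% of genes were called and 3.14% called lower. With a replicate block, these were -1.18 (edgeR adjusted p = 0.00525) and -0.80 (adjusted p = 0.00139). In δ-cells alone the blocked *Hhex* change between cytokines and cytokines with NMMA was -0.87 (adjusted p = 0.129) and stayed uncalled.

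The fall of *Irx2* in α-cells went with lower levels of other islet transcription factor genes. Of 20 listed, 19 were tested, and 8 were lower and 0 higher with cytokines, where 8.13% of all genes tested were lower and 20.6% were called in either direction. The median log2 change was -0.81, against -0.04 over all genes. The 8 included *Nkx6-1* and *Mafa*, which are also on the list of β-cell markers. They had 86 and 36 UMIs in untreated α-cells and 11 and 0 with cytokines. With replicate 1 of the cytokine libraries left out, 5 of the list were lower (*Pax6* among them, which was not called with all libraries), and with total UMI scaling 16. *Nkx2-2*, a homeodomain factor of endocrine cells, was at 78.6 and 65.2 CPM untreated, 4.42 and 31.6 with cytokines and 49.5 and 46.02 with cytokines and NMMA (log2 change with cytokines -1.82, SE 0.46, edgeR adjusted p = 0.0183). *Neurod1*, a basic helix-loop-helix factor, was at 159 and 179 CPM untreated and 99.4 and 102 with cytokines (-0.75, SE 0.22, adjusted p = 0.0243), and this call was lost without replicate 1 or without replicate 2 of the cytokine libraries. *Isl1*, a LIM-homeodomain factor of all islet endocrine cells, was at 249 and 253 CPM and fell to 59.6 and 87.5 (-1.75, SE 0.23, adjusted p = 4.51e-05).

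Against cytokines with NMMA, 3 of the 19 were lower with cytokines alone in α-cells, among them *Isl1* (-1.39), beside 5.35% of all genes, with a median of -0.57 against -0.05 over all genes. The number was 1 without replicate 1 of the cytokine libraries, 2 without replicate 1 or without replicate 2 of the libraries with cytokines and NMMA, 5 without replicate 2 of the cytokine libraries, and 10 with total UMI scaling. With cytokines and NMMA against untreated, 2 were lower, *Myt1* (-1.51) and *Mafa*, a β-cell factor with few UMIs in α-cells, a count that was 0 without replicate 1 and 1 without replicate 2 of the libraries with cytokines and NMMA.

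In δ-cells, 4 of 17 tested islet factors were lower with cytokines beside *Hhex*, and 0 were higher, where 3.01% of all genes tested were lower and 7.74% were called in either direction. The median log2 change was -1.22, against -0.01 over all genes. *Isl1* was at 590 and 527 CPM untreated, 169 and 88.2 with cytokines and 212 and 160 with cytokines and NMMA (log2 change with cytokines -2.16, with cytokines and NMMA -1.58, both called by edgeR), so like *Hhex* it stayed low with the inhibitor. *Pax6*, a paired-box factor of endocrine cells, was at 304 and 275 CPM, 65.1 and 116, and 245 and 256 in the same order (-1.62 with cytokines). It was the 1 factor of the list called lower with cytokines than with cytokines and NMMA (-1.41), a count that was 0 without replicate 1 or without replicate 2 of the libraries with cytokines and NMMA, and 4 with the replicate block. *Pdx1*, which is used in β- and δ-cells, was at 151 and 119 CPM untreated and 32.5 and 32.1 with cytokines (-2.07), and *Tshz1* changed by -1.21, a call lost without replicate 1 or without replicate 2 of the cytokine libraries and with total UMI scaling.

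**Figure D5:**
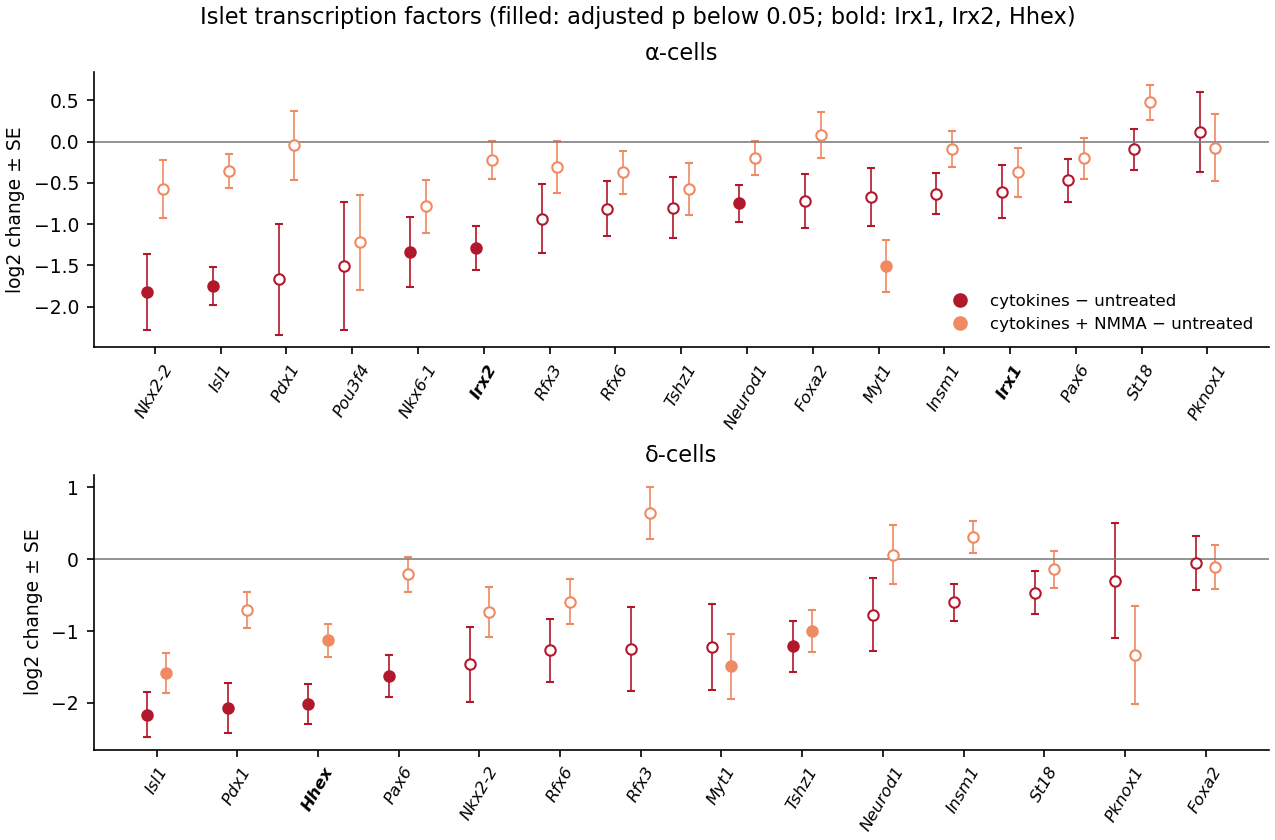
Log2 changes with their SE (y axis) of listed islet transcription factor genes with cytokines and with cytokines and NMMA, each against untreated, in α-cells (top) and δ-cells (bottom); filled points passed an adjusted p of 0.05 and genes with 3 or fewer UMIs in a condition, and some others not reported here, are left out. *Irx2* lies among the lower genes of α-cells (-1.29) and *Hhex* (-2.01) beside *Isl1* and *Pdx1* in δ-cells.

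The other Iroquois genes *Irx3*, *Irx4*, *Irx5* and *Irx6* had 0 UMIs in α- and δ-cells of all libraries, so *Irx1* and *Irx2* were the only members of the family found there. Of the Groucho genes, whose proteins *Hhex* works with as a repressor, 0 of 5 tested in α-cells and 0 of 4 in δ-cells were called with cytokines. Of all genes tested, 20.6% and 7.74% were called there, and so few genes cannot show a difference from these shares. *Tle1* was higher in δ-cells with cytokines and NMMA than untreated (log2 change 0.996, edgeR adjusted p = 0.0442), where 7.9% of all genes were called. This call was lost without replicate 1 or without replicate 2 of the libraries with cytokines and NMMA.

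The hormone genes of the 2 cell types parted. In α-cells *Gcg*, which encodes glucagon, was higher with cytokines (log2 change 0.90, edgeR adjusted p = 0.0242) where *Irx2* was lower, though the *Gcg* call was lost without replicate 1 of the cytokine libraries and with total UMI scaling. In δ-cells *Sst*, which encodes somatostatin, was lower, at 77278 and 74479 CPM untreated, 35187 and 31706 with cytokines and 36420 and 46683 with cytokines and NMMA (-1.18 with cytokines and -0.87 with cytokines and NMMA, both called by edgeR, the latter lost without replicate 1 or without replicate 2 of the libraries with cytokines and NMMA). Of 10 genes of α-cell function tested, 3 were lower with cytokines and 1, *Gcg*, higher, beside 8.13% lower and 20.6% called of all α-cell genes. With the replicate block 5 were lower and 2 higher, with total UMI scaling 5 and 0, and without replicate 2 of the cytokine libraries 2 and 1. In the fit of all libraries the lower genes were *Slc7a2*, an arginine transporter (-1.19), *Sstr2*, a somatostatin receptor (-2.02), and *Abcc8*, the sulfonylurea receptor of the KATP channel (-1.03). Of 9 genes of δ-cell function, *Sst*, *Rbp4* (-1.07) and *Abcc8* (-1.64) were lower, beside 3.01% of all δ-cell genes, or 2 without *Rbp4* with total UMI scaling and without replicate 1 or replicate 2 of the libraries with cytokines and NMMA. *Gcg* and *Slc7a2* are also on the list of α-cell markers, and *Sst* and *Rbp4* on that of δ-cells. The classes were clustered and named by these lists, so these genes are not independent of them.

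The genes most like each of the 3 were sought over 56 sums of 9 cell classes, by Pearson's r of log2(CPM + 1), as a description in which all points share libraries and depth. *Irx2* was most like *Pappa2* (r = 0.95), *Nxph1* (0.93), *Gcg* (0.93), *Cryba2* (0.92) and *Sytl2* (0.92). *Irx1* was most like *Gcg* (0.90), *Irx2*, *Hhatl*, *Gm20554* and *Tent5d* (each 0.88). For *Hhex* the likeness was lower, with *Phf20* and *Rnaset2b* (each 0.72), *Myl12b* (0.69), *Sox11* (0.68) and *Exoc6* (0.67). Of each 5, 2 were also among the first 5 by Spearman's rho.

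Genes alike over cell classes were not all called in the same comparisons of conditions. *Pappa2*, a protease that cleaves IGF-binding proteins, was at 341 and 295 CPM in untreated α-cells, 102 and 99.0 with cytokines and 171 and 96.6 with cytokines and NMMA (log2 change with cytokines -1.66, edgeR adjusted p = 0.00167). *Cryba2*, a crystallin gene, was at 165 and 178 CPM untreated, 48.6 and 35.9 with cytokines and 58.4 and 43.0 with cytokines and NMMA (-2.05, adjusted p = 2.00e-05). Unlike *Irx2*, both were called lower with cytokines and NMMA than untreated (log2 -1.24 and -1.75), while *Irx2* at -0.22 was not. Whether these genes differed from *Irx2* was not tested. Among the genes like *Hhex*, *Rnaset2b* was higher in δ-cells with cytokines and NMMA than untreated (1.66, edgeR adjusted p = 0.000872), at 220 and 242 CPM against 48.1 and 105.

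Some genes of these sets are neighbours on the chromosome. *Gm20554*, a lincRNA gene on the minus strand (chr13:72626213-72628564), starts 255 bases from the start of *Irx2* and runs the other way, and the *Irx2* promoter shown above lies in the gap between them. It was at 28.0 and 22.7 CPM in untreated α-cells, 15.5 and 12.9 with cytokines and 19.05 and 18.4 with cytokines and NMMA. Its log2 change with cytokines was -0.84 (SE 0.37) and did not pass the test (edgeR adjusted p = 0.119). *Exoc6* (chr19:37550418-37684059, plus strand), an exocyst subunit gene, starts 109686 bases past the end of *Hhex* with 0 protein-coding genes between. In δ-cells *Exoc6* was at 31.7 and 43.9 CPM untreated and 19.5 and 24.0 with cytokines (3 and 6 UMIs). Its log2 change was -0.71 (SE 0.55, edgeR adjusted p = 0.510), so neither of these neighbours was called with cytokines. The annotated gene nearest *Hhex* was *Gm38345* on the minus strand, 153 bases away. It overlaps part of the *Hhex* promoter shown and is not among the genes most like *Hhex*.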

How the data were processed

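The authors deposited raw UMI counts per gene and barcode for 8 single-cell libraries, made with Cell Ranger per the submitters' notes, which name mm10. Replicates were listed with 31053 and 32285 genes, and the 30406 shared IDs were used. The 3 genes and all gene lists were chosen with earlier results of these data known.

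Barcodes with at least 200 genes, at most 5500 (replicate 1) or 6500 (replicate 2) genes and at most 10% mitochondrial UMIs were kept. They were clustered with scanpy 1.11.5 (2000 variable genes, 30 components, 20 neighbours, resolution 1), and α-, δ- and PP-like clusters were clustered again on marker genes centred within each library (10 components, resolution 0.5). Clusters were named after the cell type whose markers scored highest, and α-, δ-, PP- and β-cells are cells of clusters named in this way, which can differ from the study's. Clusters led by insulin after the second clustering (303 cells) and barcodes of few UMIs (2228) stayed unnamed. Doublets (99 cells, 0.910%) were removed only as an alternative.

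UMI counts were summed per class and library (at least 10 cells) and tested with edgeR 4.0.16 in R 4.3.3 (filterByExpr, TMM, robust quasi-likelihood F test, all conditions in 1 fit, Benjamini-Hochberg adjusted p under 0.05). Alternatives were DESeq2 1.42.0, other scaling, filters, classes and leaving out each library. Counts of called list genes and the split of calls by direction under other settings, and a second clustering on 2000 variable genes, were added after seeing the data. The fits were tested on simulated counts with 200 changed genes. The replicate number marks a pool of islets divided over the conditions, per the study's methods, and libraries of 1 number deviated together (r = 0.253 to 0.437 in α-cells, 0.182 to 0.351 in δ-cells, 6 pairs of conditions each). P-values measure the spread between these 2 pools. Gene positions are from GENCODE M21.

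Genes named are the 3, listed pathway and marker genes (those past the test and up to 4 others per list), and the 5 genes most like each by r, of those reaching 20 CPM in some sum with a mean of at least 10 UMIs in the leading class. *Ghsr*, *Lepr*, *Kdr* and *Esm1* are markers at 0, and *Gm38345* is named for its position beside *Hhex*. Some listed genes are counted in the lists but not reported here by name.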

Additional observations from a re-analysis of the deposited data

How the results depend on the processing

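Over 24 comparisons of *Irx1*, *Irx2* and *Hhex* in α-, δ- and non-β endocrine cells, 432 alternative values were computed: 391 kept their direction and side of the threshold, 10 lost a call, 11 gained one and 20 changed sign. The fall of *Hhex* in δ-cells with cytokines was called in all 18 alternatives. Where a library was left out, its lone partner was assumed to vary like the other groups. Log2 changes then ranged, in the order cytokines against untreated, cytokines against cytokines with NMMA, cytokines with NMMA against untreated, and NMMA against untreated, as follows. In α-cells *Irx1* ranged from -0.87 to -0.30, -0.42 to -0.01, -0.64 to -0.06 and -0.48 to 0.47. *Irx2* ranged from -1.66 to -1.04, -1.44 to -0.83, -0.34 to -0.10 and -0.36 to 0.29. In δ-cells *Hhex* ranged from -2.27 to -1.88, -1.14 to -0.76, -1.17 to -1.08 and -0.13 to 0.20. In non-β endocrine cells *Irx1* ranged from -0.49 to -0.35, -0.19 to 0.15, -0.57 to -0.24 and -0.24 to 0.43, *Irx2* from -1.45 to -0.95, -1.22 to -0.70, -0.40 to -0.05 and -0.18 to 0.19, and *Hhex* from -2.43 to -1.62, -1.55 to -1.10, -1.17 to -0.35 and -0.18 to 0.63.

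The replicate block moved *Hhex* in non-β endocrine cells to a call (-1.18 and -0.80) and turned the sign of *Irx1* there, uncalled, between cytokines and cytokines with NMMA (0.0040), and it changed no other call. With total UMI scaling, *Irx1* changed with cytokines by -1.12 in α-cells and -0.76 in non-β endocrine cells, both called. *Hhex* in non-β endocrine cells passed between cytokines and cytokines with NMMA also with total scaling (-1.58), another low-count filter (-1.30), uncentred cells (-1.39) and at most 5% mitochondrial UMIs (-1.49). *Irx2* lost that call there with DESeq2 (-0.88) and at 5% mitochondrial UMIs (-0.71). Other sign changes were of uncalled values near 0: *Irx2* with NMMA in α-cells (0.021 uncentred and 0.018 by leading hormone) and in non-β cells (-0.073 with variable genes), *Hhex* with NMMA in δ-cells (-0.020) and non-β cells (-0.042) and *Irx1* between cytokines and cytokines with NMMA in non-β cells (0.062), all 3 at 5% mitochondrial UMIs. A minimum of 5 cells per sum used the same libraries, and classes by leading hormone left out the first δ-cell cytokine library.

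Numbers of called genes moved more. Leaving out 1 library gave 1068 to 1846 called genes with cytokines in α-cells, 280 to 642 in δ-cells and 11 to 268 between cytokines and cytokines with NMMA in δ-cells. In α-cells total scaling called 3040 against 1962 with cytokines, of which 81.0% against 39.5% were lower, and 2134 against 1090 between cytokines and cytokines with NMMA (88.8% against 46.8% lower). The block called 1709 there and 1246 against 756 for cytokines with NMMA, and DESeq2 1097, 634 and 461. In δ-cells total scaling left 26.1% against 38.8% of the calls with cytokines lower. Between cytokines and cytokines with NMMA there were 59 calls in δ-cells, 279 with the block, 254 with another low-count filter, 30 with DESeq2 and 30 with the 3 genes kept in the clustering. DESeq2 called 367 and 350 in δ-cells against 600 and 612, and the block 963 against 612. In non-β cells the block called 1834 against 924 and 1901 against 1083, total scaling 1608, and DESeq2 1321 against 2053, 557 and 711. The causes were not tested. Few δ-cells remained with cytokines, which limits the depth behind *Hhex*.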

Other observations

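*Irx2* in PP-cells was followed in UMIs only, since too few cells were captured for a test. PP-cells held 11 and 5 *Irx2* UMIs untreated (29 and 20 cells), 2 and 0 with cytokines (3 and 7 cells), 7 and 11 with cytokines and NMMA (9 and 13 cells) and 2 and 3 with NMMA (7 and 13 cells). *Irx1* and *Hhex* were at 0 to 4 UMIs in every PP-cell sum.

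*Hhex* in α-cells gave 11 and 10 UMIs untreated, 0 and 1 with cytokines, 3 and 9 with cytokines and NMMA, and 9 and 38 with NMMA, where 38 in replicate 2 was the highest. Its log2 change with cytokines was -2.65 (SE 1.24, edgeR adjusted p = 0.141). *Irx2* in δ-cells gave 2 and 13 UMIs untreated and 0 and 5 with cytokines (-0.04, adjusted p = 0.999).

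Cells led by insulin that clustered with the non-β endocrine cells carried part of all 3 genes. In the untreated libraries they held 11.9% and 16.5% of all *Irx1* UMIs of kept barcodes, 12.1% and 13.5% of *Irx2* and 19.95% and 19.2% of *Hhex*, against 32.3%, 32.9% and 30.8% with NMMA in replicate 2, where 114 such cells were kept against 12 in replicate 1. They were in none of the class sums tested. What these cells are was not tested.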
